A study of Mus musculus with 4 samples.

Results

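Sost, Frzb, Sfrp1, Sfrp2 and Dact2 encode inhibitors of Wnt signalling, and their transcripts were followed cell by cell in the thoracic aorta of mice. The 5 genes were chosen by name and were all listed among the 17524 gene symbols of each of the 4 deposited tables. Wnt proteins are secreted signals that bind Frizzled receptors and the co-receptors LRP5 and LRP6, which stabilises beta-catenin and switches on genes through TCF and LEF transcription factors. Secreted inhibitors act outside the cell: sclerostin, the product of Sost, binds LRP5 and LRP6, whereas Frzb (also called Sfrp3), Sfrp1 and Sfrp2 carry a cysteine-rich domain like that of Frizzled and bind Wnt proteins. Dact2 differs from the other members in that its product is a cytoplasmic protein that binds Dishevelled, so the name "secreted inhibitor" does not cover it. Sclerostin is best known from bone, where it restrains bone formation, and it is also made by vascular smooth muscle.

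Each of the 4 libraries came from 1 combination of genotype and treatment, with thoracic aortas of 3 mice pooled per library, fat around the vessel removed, and viable cells sorted before droplet capture (10x Genomics 3′ v3 chemistry). The groups were whole-body Sting knockout (KO) with angiotensin II (AngII) infusion for 7 days and a high fat diet for 5 weeks, KO with saline and a normal diet, wild type (WT) with the same AngII infusion and high fat diet, and WT with saline and a normal diet. AngII, a hormone that constricts arteries, and the diet were given together and cannot be told apart; age and sex are not stated. With 1 library per group there is no spread between samples, so no test was made, and every interval below covers counting error only.

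The deposited libraries held between 8495 and 12053 cells and between 60064038 and 94698727 UMIs, a UMI being 1 counted transcript molecule. Libraries shared 92 to 148 cell barcodes pairwise, at most 1.74% of the smaller library. Tmem173, the gene that encodes STING, did not separate the genotypes: it stood at 6.11 UMIs per 1000000 UMIs (CPM) in the AngII library labelled KO and 7.04 CPM in WT AngII, and at 1.33 CPM in the saline library labelled KO and 1.75 CPM in WT saline. A 3′ tag may lie outside the altered part of the gene, so this level neither checks nor contradicts the label, and the libraries are called KO-labelled below. Smooth muscle cells were taken as cells with at least 3 UMIs of Myh11, the smooth muscle myosin heavy chain. Fibroblasts were taken as cells with at least 10 UMIs of Dcn and Lum, 2 matrix proteoglycan genes, and at most 1 of Myh11. The smooth muscle gate held 5660 cells in KO-labelled AngII, 10350 in KO-labelled saline, 5889 in WT AngII and 7546 in WT saline. The fibroblast gate held 1879, 506, 1696 and 1021 cells in the same libraries. The 6 smooth muscle markers summed to between 31998 and 40280 CPM in the smooth muscle gate, and to between 1089 and 4659 CPM in the fibroblast gate. The 6 fibroblast markers summed to 18140 to 30586 CPM in the fibroblast gate and 1690 to 4453 CPM in the smooth muscle gate. Part of this contrast was fixed by the gate rules, because the lists include Myh11, Dcn and Lum. Median depth was 8726 and 10298 UMIs per smooth muscle cell in the KO-labelled and WT AngII libraries, against 6465.5 and 6405.5 in the KO-labelled and WT saline libraries. Per fibroblast it was 11779 and 9153.5 UMIs in the KO-labelled and WT AngII libraries, against 3874.5 and 3608 in the saline libraries.

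The 5 genes divided between the 2 gates. Sost was mainly a smooth muscle transcript, and Dact2 was found mostly in fibroblasts. Sfrp2, Frzb and Sfrp1 had a higher level in the fibroblast gate than in the smooth muscle gate in all 4 libraries. Because the assay tags each transcript once at its 3′ end, CPM is not divided by gene length. Between 96.2% and 98.0% of a library's Sost UMIs, and between 79.1% and 94.5% of its Dact2 UMIs, lay in cells of the smooth muscle gate and of the fibroblast gate, in that order. For Sfrp2 the fibroblast gate held 67.4% in KO-labelled AngII, 13.9% in KO-labelled saline, 76.7% in WT AngII and 47.1% in WT saline. The smooth muscle gate, which had more cells, held 25.9%, 75.3%, 18.7% and 44.4% in the same order.

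**Figure D1:**
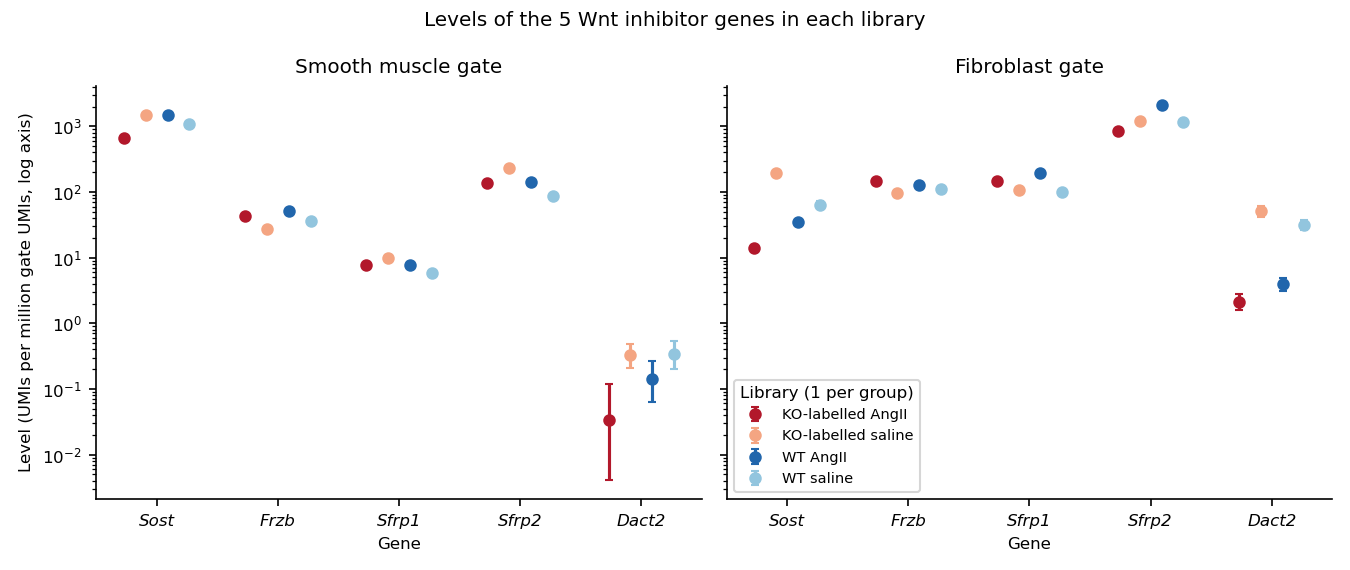
Level of each gene (UMIs per 1000000 UMIs of the gate, log axis) in the smooth muscle gate (left) and the fibroblast gate (right). Each point is 1 library with its 95% exact Poisson interval, often smaller than the point; Sost is at least 663 CPM in every library in smooth muscle, and Sfrp2 at least 861 CPM in every library in fibroblasts.

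The promoters of the most abundant member in each gate are shown so that the sequence context stands beside the levels. Both are the 250 bases before the RefSeq transcription start in GRCm38.p6, read 5′ to 3′ on the gene's strand. The Sost window is chr11:101967016-101967265 on the minus strand, next to a gene that GENCODE places at 101962458 to 101967015 with 2 exons and no overlapping gene. The Sfrp2 window is chr3:83766071-83766320 on the plus strand, next to a gene at 83766321 to 83774316 whose first transcript has 3 exons. Capitals mark the only CCAAT box of the Sost window, here on the other strand as ATTGG and starting 56 bases before the start site, and the only octamer motif of the Sfrp2 window, on the other strand as ATTTGCAT and starting 47 bases before the start site.
Sost: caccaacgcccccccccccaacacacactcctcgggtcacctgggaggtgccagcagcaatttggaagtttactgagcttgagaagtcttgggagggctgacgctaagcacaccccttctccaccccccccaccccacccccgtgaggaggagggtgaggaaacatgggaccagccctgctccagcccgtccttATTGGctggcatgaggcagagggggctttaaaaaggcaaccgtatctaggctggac
Sfrp2: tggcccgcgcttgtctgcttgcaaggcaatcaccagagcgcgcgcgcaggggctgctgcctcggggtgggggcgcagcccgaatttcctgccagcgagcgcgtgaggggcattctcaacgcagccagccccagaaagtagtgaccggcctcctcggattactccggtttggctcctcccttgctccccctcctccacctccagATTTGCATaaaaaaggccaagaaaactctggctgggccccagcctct

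Motifs were searched on both strands of all 32851 promoter windows of the same length. CCAAT was held by 33.8% of windows and the octamer ATGCAAAT by 1.60%. The TCF and LEF motif, searched as CTTTG followed by AA, by AT, by TA or by TT, was held by 14.8% of windows and by neither of these. TATAAA (12.4% of windows) and the CArG box (1.47%) were also in neither. The E-box CANNTG, held by 66.2% of windows, occurred once in the Sost window, 213 bases before the start, and not in the Sfrp2 window. No 2 matches overlapped; the list of motifs was partly chosen after the sequences had been read, and a match describes letters, not binding.

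Sost, the sclerostin gene, was lowest in the smooth muscle gate of the KO-labelled AngII library. Its level was 663 CPM in KO-labelled AngII, 1515 CPM in KO-labelled saline, 1499 CPM in WT AngII and 1084 CPM in WT saline. The AngII libraries thus stood on opposite sides of their own saline library in the 2 genotype labels. The log2 ratio of KO-labelled AngII to KO-labelled saline was -1.19 (95% exact conditional interval -1.21 to -1.18), and that of WT AngII to WT saline was 0.47 (0.45 to 0.48). KO-labelled AngII against WT AngII gave -1.18 (-1.19 to -1.16), and KO-labelled saline against WT saline gave 0.48 (0.47 to 0.50).

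A gene was called different at a 2-fold or larger ratio with at least 100 UMIs in the library of higher CPM. In smooth muscle, Sost was the 1 member called lower in KO-labelled AngII against KO-labelled saline, where 5.44% of all eligible genes were called lower. Sost was likewise the 1 member called lower in KO-labelled AngII against WT AngII, against 0.863% of all eligible genes; 0.498% of eligible genes had a smaller ratio than Sost there. With the cells thinned to equal depth the ratios were -0.84 and -0.93, and with each cell weighted equally -0.80 and -0.92, under the 2-fold line in both comparisons. Without the 8% of cells with most UMIs, KO-labelled AngII against KO-labelled saline gave -0.997, just under 2-fold.

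Sost was detected in most smooth muscle cells of every library. At least 1 Sost UMI was seen in 83.8% of cells in KO-labelled AngII, 97.1% in KO-labelled saline, 95.8% in WT AngII and 92.2% in WT saline. After thinning each cell to 3000 UMIs the shares were 68.1%, 93%, 87.2% and 83.2% in the same order, and the median cell held 2, 4, 4 and 3 Sost UMIs. Thinning left out 0, 1181, 0 and 223 cells of the gate. The lower level of KO-labelled AngII was therefore present in the median cell as well as in the sum. In phagocytes, which should lack Sost, 5.12% of thinned cells held a UMI in KO-labelled AngII, 20.4% in KO-labelled saline, 8.27% in WT AngII and 7.14% in WT saline, with unthinned median depths of 7088, 5397, 7349 and 4480 UMIs. The thinned phagocytes numbered 449, 49, 568 and 210, and the interval in KO-labelled saline was 10.2 to 34.3%. In thinned endothelial cells the shares were higher, at 19.4%, 35.5%, 12.5% and 27.7% of 31, 31, 16 and 65 cells. Sost stood at 173, 248, 48.2 and 186 CPM in the endothelial gate.

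**Figure D2:**
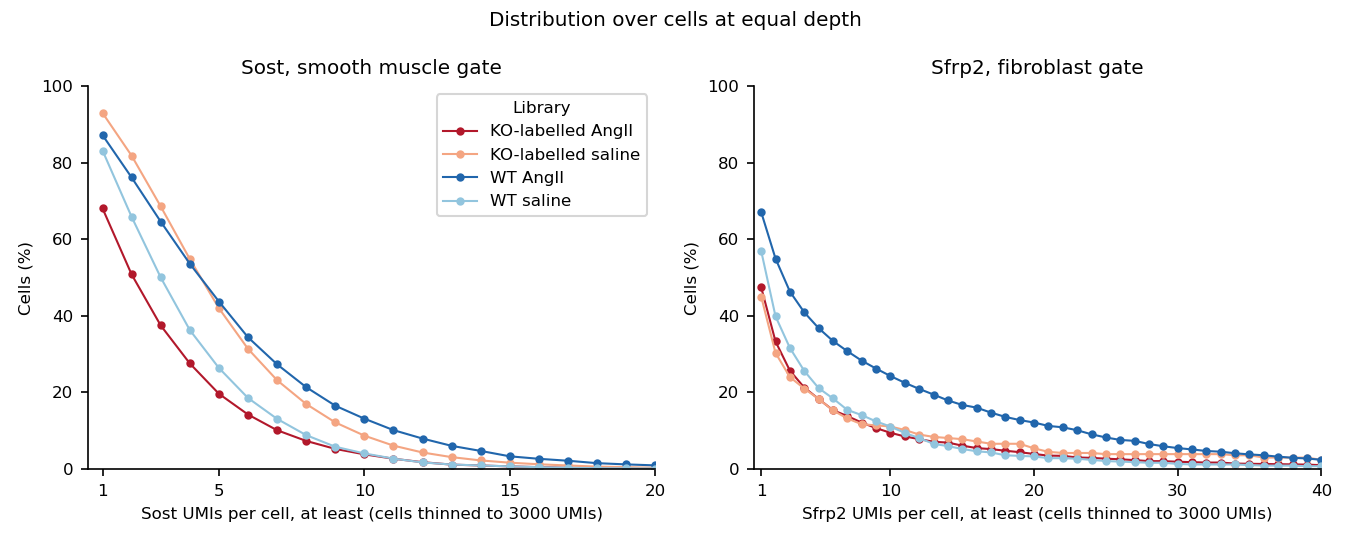
Share of cells (%) with at least the number of UMIs on the horizontal axis, for Sost in the smooth muscle gate (left) and Sfrp2 in the fibroblast gate (right), in cells thinned to 3000 UMIs, 1 line per library. Thinning left out 173 of 506 KO-labelled saline and 354 of 1021 WT saline fibroblasts, and 0 in the AngII libraries. For Sost, 19.7% of KO-labelled AngII cells and 43.7% of WT AngII cells held at least 5 UMIs; for Sfrp2, 9.47% of KO-labelled AngII cells and 24.3% of WT AngII cells held at least 10.

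The smooth muscle gate was divided by marker genes to see where the difference in Sost lay. Cells with a UMI of the arch genes Dlx5, Dlx6 or Msx2, transcription factors of neural crest derivatives, made up 2.49% of the gate in KO-labelled AngII, 2.85% in KO-labelled saline, 2.89% in WT AngII and 3.67% in WT saline. In these cells Sost stood at 2087 CPM in KO-labelled AngII and 2042 CPM in KO-labelled saline, a log2 ratio of 0.03 (-0.03 to 0.10). In cells without such a UMI the levels were 626 and 1497 CPM in the same libraries, a ratio of -1.26 (-1.27 to -1.24). The KO-labelled AngII level of Sost was thus close to its saline level in the arch-gene cells, which numbered 141 and 295. In WT the arch-gene cells held 3122 CPM with AngII and 1582 CPM with saline, so that KO-labelled AngII stood below WT AngII in these cells too, by a log2 ratio of -0.58 (-0.64 to -0.52).

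Position along the vessel was read from caudal Hox genes, which mark the descending aorta. Cells with a caudal Hox UMI made up 48.3% of the gate in KO-labelled AngII, against 35.3% in KO-labelled saline, and 40.3% in WT AngII, against 37.5% in WT saline. These shares also follow depth per cell: median UMIs with and without a Hox UMI were 9512.5 and 8121 in KO-labelled AngII, and 6886 and 6201 in KO-labelled saline. Among Hox-positive cells Sost was 510 CPM in KO-labelled AngII and 1441 CPM in KO-labelled saline, a log2 ratio of -1.50 (-1.53 to -1.47). Among Hox-negative cells it was 835 and 1559 CPM, a ratio of -0.90 (-0.92 to -0.88). The lower Sost level was present on both sides of this division, and the part that the different Hox share plays in the gate's total was not tested. In WT the AngII to saline ratio was 0.49 in Hox-positive and 0.46 in Hox-negative cells.

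Modulated smooth muscle cells, which lose contractile features and gain matrix and inflammatory genes, were marked by a UMI of Spp1, Tnfrsf11b, Lum or Vcam1. They were 55.8% of the gate in KO-labelled AngII, 28.4% in KO-labelled saline, 63.2% in WT AngII and 13.3% in WT saline, shares that also follow depth per cell. Sost was lower in cells with such a UMI than in cells without one in all 4 libraries, with log2 ratios of -1.06 in KO-labelled AngII, -0.17 in KO-labelled saline, -0.43 in WT AngII and -0.17 in WT saline. KO-labelled AngII against KO-labelled saline gave -1.50 in the marked cells and -0.62 in the others. Cells with and without a UMI of the root genes Tnnt2, Hand2 or Tbx20 gave -1.29 and -1.15.

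**Figure D3:**
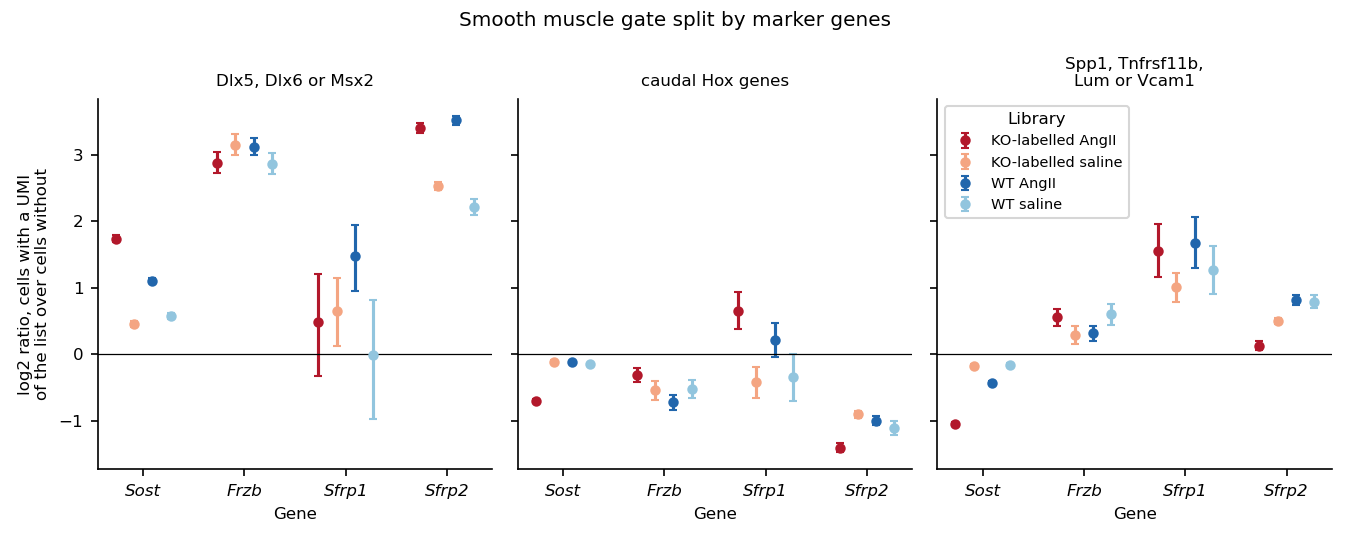
log2 ratio of CPM in cells of the smooth muscle gate with a UMI of a marker list over cells without one, per gene and library, with 95% exact conditional intervals: arch genes (left), caudal Hox genes (middle) and modulated smooth muscle genes (right). Frzb and Sfrp2 lie above 2 on the left in all 4 libraries, and Sfrp2 lies between -0.91 and -1.41 in the middle.

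In the fibroblast gate Sost was scarcer than in smooth muscle, and it was highest in KO-labelled saline, as smooth muscle transcripts were. It was 14.1 CPM in KO-labelled AngII, 192 CPM in KO-labelled saline, 35.1 CPM in WT AngII and 63.9 CPM in WT saline. As a percentage of the smooth muscle level these were 2.12%, 12.6%, 2.34% and 5.90%. The same percentages for Cnn1, the contractile gene calponin, were 2.78%, 12.9%, 2.47% and 3.8%, for smooth muscle actin Acta2 5.99%, 12.0%, 3.49% and 4.13%, and for the contractile gene Tagln 6.75%, 11.6%, 3.33% and 3.48%. KO-labelled AngII was thus lowest for Sost but second highest for Acta2 and Tagln. The smooth muscle markers of the fibroblast gate summed to 2006 CPM in KO-labelled AngII, 4659 CPM in KO-labelled saline, 1089 CPM in WT AngII and 1432 CPM in WT saline. Sost was called lower in KO-labelled AngII against KO-labelled saline (log2 -3.77), lower in KO-labelled AngII against WT AngII (-1.32) and higher in KO-labelled saline against WT saline (1.58). The part of smooth muscle transcripts in these ratios was not tested. The last of them was 0.40 among cells with at least 4000 UMIs and 0.99 with stricter gates.

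**Figure D4:**
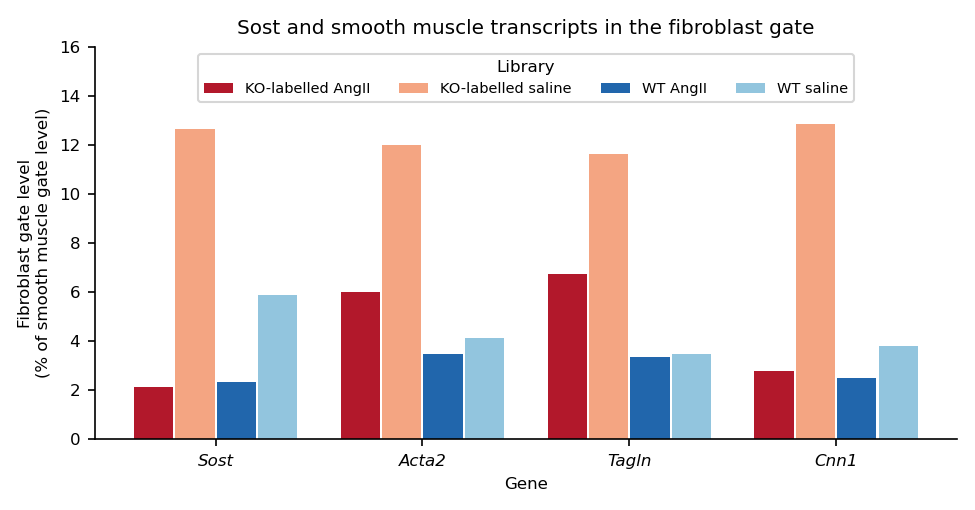
Level in the fibroblast gate as a percentage of the level in the smooth muscle gate, for Sost and 3 contractile smooth muscle genes, 1 bar per library. KO-labelled saline is highest for all 4 genes, at 12.6% for Sost and 12.0% for Acta2.

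Frzb, a secreted Frizzled-related protein, was higher in both AngII libraries than in their saline libraries, in both gates. In smooth muscle its level was 43.6 CPM in KO-labelled AngII, 27.6 CPM in KO-labelled saline, 51.8 CPM in WT AngII and 36.3 CPM in WT saline. In fibroblasts it was 149 CPM in KO-labelled AngII, 96.2 CPM in KO-labelled saline, 129 CPM in WT AngII and 113 CPM in WT saline. In each gate the 2 AngII libraries were the highest. The AngII to saline ratios were 0.66 (0.58 to 0.75) in KO-labelled and 0.51 (0.43 to 0.59) in WT smooth muscle, and 0.63 (0.44 to 0.82) in KO-labelled and 0.19 (0.05 to 0.34) in WT fibroblasts. None reached 2-fold, although the KO-labelled fibroblast ratio was 1.07 with stricter gates, 1.10 without the 8% of cells with most UMIs and 1.13 with cells weighted equally, and the WT one was -0.04 among cells with at least 4000 UMIs. Fibroblast markers in the smooth muscle gate were also higher with AngII, at 4092 CPM summed in KO-labelled AngII against 1707 in KO-labelled saline, and 4453 in WT AngII against 1690 in WT saline. In smooth muscle with stricter gates (at least 5 UMIs of Myh11, at most 1 of Dcn and Lum and none of Ptprc, Pecam1 or Cdh5), Frzb was 34.1 CPM in KO-labelled AngII, 23.5 CPM in KO-labelled saline, 42.8 CPM in WT AngII and 29.3 CPM in WT saline.

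Within the smooth muscle gate Frzb was concentrated in the arch-gene cells. Its level there was 277 CPM in KO-labelled AngII, 195 CPM in KO-labelled saline, 369 CPM in WT AngII and 212 CPM in WT saline. In the other cells of the gate it was 37.6, 21.9, 42.4 and 29.2 CPM in the same libraries. The log2 ratio of arch-gene cells to the others lay between 2.86 and 3.15 in the 4 libraries. Hox-positive cells had less Frzb than Hox-negative cells in every library, with ratios between -0.73 and -0.32.

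Frzb was detected in a minority of cells. In thinned smooth muscle cells 8.92% were positive in KO-labelled AngII, 6.78% in KO-labelled saline, 11.1% in WT AngII and 8.55% in WT saline. In thinned fibroblasts the shares were 25.5%, 15.9%, 21.8% and 20.1%. Thinning left out 0, 173, 0 and 354 cells of the fibroblast gate, so the saline shares cover only its deeper cells. Phagocytes gave 0.445%, 2.04%, 0.704% and 0.476%, values below both gates in every library. In KO-labelled saline this was 1 of 49 cells, with an interval of 0.05 to 10.9% that spans the smooth muscle share. The endothelial gate, small at 31, 39, 16 and 88 cells, held 287, 121, 32.1 and 243 CPM, from 88, 25, 4 and 103 UMIs. These levels lay above the fibroblast level except in WT AngII. In KO-labelled saline the interval of 78.6 to 179 CPM spans the fibroblast level.

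Sfrp1 was the least abundant of the secreted members in smooth muscle and was higher with AngII in fibroblasts. In fibroblasts its level was 148 CPM in KO-labelled AngII, 107 CPM in KO-labelled saline, 196 CPM in WT AngII and 99.6 CPM in WT saline. The AngII to saline ratio was 0.47 (0.28 to 0.65) in KO-labelled and 0.98 (0.83 to 1.13) in WT fibroblasts, and KO-labelled AngII stood below WT AngII by a log2 ratio of -0.41 (-0.47 to -0.34). The WT ratio sat on the 2-fold line: it was 1.15 with TMM scaling, 1.13 with median-of-ratios scaling, 1.44 among cells with at least 4000 UMIs and 0.74 with cells weighted equally. In smooth muscle Sfrp1 was 7.63 CPM in KO-labelled AngII, 10.0 CPM in KO-labelled saline, 7.79 CPM in WT AngII and 5.88 CPM in WT saline. The WT AngII to saline ratio of 0.41 in smooth muscle became -0.72 with stricter gates, and the KO-labelled ratio of -0.39 became -1.09.

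Sfrp1 differed between groups of fibroblasts. In saline it was higher in fibroblasts with a UMI of the resting genes Angptl7 or Inmt, at 166 CPM against 66.8 CPM in the other fibroblasts of KO-labelled saline and 134 CPM against 26.0 CPM in WT saline. In AngII these groups were closer, at 159 against 147 CPM in KO-labelled AngII and 249 against 187 CPM in WT AngII. Fibroblasts with a UMI of the activation genes Cthrc1 or Postn were 92.1% of the gate in KO-labelled AngII and 92.4% in WT AngII, against 32.2% in KO-labelled saline and 21.2% in WT saline. These shares also follow depth per cell, and the part of depth in this division was not tested. In those activated cells Sfrp1 was 152 CPM in KO-labelled AngII against 42.9 CPM in KO-labelled saline, and 200 CPM in WT AngII against 56.8 CPM in WT saline. The AngII to saline ratios among activated cells, 1.83 in KO-labelled and 1.82 in WT, were larger than over the whole gate. In fibroblasts without such a UMI, Sfrp1 was 48.6 CPM in KO-labelled AngII against 141 CPM in KO-labelled saline (-1.54), and 118 CPM in WT AngII against 115 CPM in WT saline (0.04). The AngII cells without such a UMI numbered 149 in KO-labelled and 129 in WT, with 53 and 106 Sfrp1 UMIs. The highest level of Sfrp1 per gate was in endothelial cells, at 313 CPM in KO-labelled AngII, 976 CPM in KO-labelled saline, 345 CPM in WT AngII and 641 CPM in WT saline, from 96, 201, 43 and 272 UMIs.

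Sfrp2, the most abundant member in fibroblasts, was highest in WT AngII and lowest in KO-labelled AngII. Its level was 861 CPM in KO-labelled AngII, 1217 CPM in KO-labelled saline, 2113 CPM in WT AngII and 1165 CPM in WT saline. The WT AngII library stood above the 3 others, and the 2 saline libraries were close to each other in summed UMIs. KO-labelled AngII against WT AngII gave a log2 ratio of -1.29 (-1.32 to -1.27), WT AngII against WT saline 0.86 (0.82 to 0.90), KO-labelled AngII against KO-labelled saline -0.50 (-0.55 to -0.44) and KO-labelled saline against WT saline 0.06. The saline ratio turned to -0.36 among cells with at least 4000 UMIs and was 0.31 with cells weighted equally. The KO-labelled AngII to saline ratio was 0.07 among cells with at least 4000 UMIs, so that its direction depended on depth, whereas KO-labelled AngII against WT AngII lay between -1.32 and -1.10 under all alternatives tried.

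In fibroblasts Sost and Sfrp2 were the 2 members called lower in KO-labelled AngII against WT AngII, where 4.02% of eligible genes were called lower. None was called higher, against 1.77% of eligible genes. Sfrp2 was detected in 47.5% of thinned fibroblasts of KO-labelled AngII, 45.0% of KO-labelled saline, 67.1% of WT AngII and 57.0% of WT saline. The saline shares leave out 173 KO-labelled and 354 WT fibroblasts with under 3000 UMIs. Phagocytes gave 2.90%, 8.16%, 5.28% and 2.86%. The activation genes divided the KO-labelled AngII fibroblasts: Sfrp2 was 781 CPM in cells with Cthrc1 or Postn UMIs and 2601 CPM in the 149 cells without, a log2 ratio of -1.74. In WT AngII the same cells had 2081 and 2711 CPM, a ratio of -0.38. Between the AngII libraries the log2 ratio of KO-labelled to WT was -1.41 (-1.44 to -1.39) in activated cells and -0.06 (-0.14 to 0.02) in the others. Cells with a UMI carried more UMIs in all than cells without, with medians of 12384 and 6589 in KO-labelled AngII and 9499 and 6568 in WT AngII, and the part of depth in this division was not tested.

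In smooth muscle Sfrp2 was highest in the saline library labelled KO. Its level was 136 CPM in KO-labelled AngII, 231 CPM in KO-labelled saline, 142 CPM in WT AngII and 85.5 CPM in WT saline. KO-labelled saline against WT saline gave a log2 ratio of 1.43 (1.39 to 1.48), and Sfrp2 was the 1 member called higher there, where 1.79% of eligible genes were called higher and 0.635% had a larger ratio. The ratio lay between 1.32 and 1.62 under all alternatives tried. Summed fibroblast markers of the gate were close in these libraries, at 1707 CPM in KO-labelled saline and 1690 CPM in WT saline, but single markers were not: Dcn was 221 CPM in KO-labelled saline against 138 CPM in WT saline, and Serpinf1 52.7 against 22.9 CPM. Cells of the gate with at least 10 UMIs of Dcn and Lum were 4.44% in KO-labelled saline and 2.29% in WT saline, and their part in the Sfrp2 ratio was not tested. The gate's Sfrp2 level was 19% of the fibroblast level in KO-labelled saline and 7.34% in WT saline. The same percentages were 3.42% and 1.31% for Serpinf1 and 5.81% and 4.49% for the fibroblast marker Pdgfra. They were 2.0% and 1.22% for Dcn, which also defined the fibroblast gate. With stricter gates, Sfrp2 in smooth muscle was 180 CPM in KO-labelled saline and 71.1 CPM in WT saline.

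AngII against saline ran in opposite directions for Sfrp2 in smooth muscle, with a log2 ratio of -0.76 (-0.80 to -0.72) in KO-labelled and 0.74 (0.69 to 0.79) in WT libraries. The WT ratio was 0.16 with stricter gates. Sfrp2 was concentrated in arch-gene cells, at 1157 CPM in KO-labelled AngII, 1154 CPM in KO-labelled saline, 1256 CPM in WT AngII and 347 CPM in WT saline. The WT saline library stood apart in these cells, and the other 3 were close to each other. In the cells without arch genes the levels were 110, 200, 110 and 74.9 CPM. KO-labelled saline remained the highest library outside the arch-gene cells. Hox-positive cells had less Sfrp2 than Hox-negative cells in all 4 libraries, with log2 ratios from -1.41 to -0.91, and KO-labelled saline against WT saline gave 1.58 and 1.37 on the 2 sides.

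Dact2, the intracellular member, was lower with AngII in fibroblasts in both genotype labels. Its fibroblast level was 2.11 CPM in KO-labelled AngII from 52 UMIs, 50.5 CPM in KO-labelled saline from 125 UMIs, 3.91 CPM in WT AngII from 70 UMIs and 31.3 CPM in WT saline from 129 UMIs. Both AngII libraries lay below both saline libraries. The AngII to saline log2 ratio was -4.58 (-5.08 to -4.10) in KO-labelled and -3.00 (-3.44 to -2.57) in WT fibroblasts. Dact2 was the 1 member called lower in WT AngII against WT saline in fibroblasts, where 5.72% of eligible genes were called lower and 0.415% had a smaller ratio. It was, with Sost, 1 of 2 members called lower in KO-labelled AngII against KO-labelled saline, where 7.12% of eligible genes were called lower. No member was called higher with AngII in fibroblasts, against 9.11% of eligible genes in WT and 12.1% in KO-labelled libraries.

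In cells thinned to equal depth, Dact2 was detected in 0.852% of fibroblasts in KO-labelled AngII, 11.1% in KO-labelled saline, 0.708% in WT AngII and 9.0% in WT saline. Thinning left out 0, 173, 0 and 354 cells of the fibroblast gate, so the saline shares cover only its deeper cells. The fibroblasts with a Dact2 UMI numbered 29, 56, 55 and 81 without thinning. Dact2 was not found in phagocytes or endothelial cells of any library. In smooth muscle there were 2, 23, 9 and 18 UMIs, too few for the comparison.

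Within the fibroblast gate Dact2 lay in cells with a UMI of Pi16 or Dpp4, genes of progenitor-like adventitial fibroblasts. These cells held 52 of 52 Dact2 UMIs in KO-labelled AngII, 124 of 125 in KO-labelled saline, 70 of 70 in WT AngII and 129 of 129 in WT saline. They also made up most of the gate, at 88.4%, 82.2%, 91.6% and 84.4% of its cells, shares that also follow depth per cell. Within them the AngII to saline ratio was -4.67 (-5.17 to -4.20) in KO-labelled and -3.13 (-3.57 to -2.70) in WT libraries. Fibroblasts with a UMI of the acute phase genes Saa3 or Mmp3 held 4, 3, 9 and 3 of these UMIs in KO-labelled AngII, KO-labelled saline, WT AngII and WT saline, although they were 29.2%, 22.9%, 27.2% and 22.2% of the gate.

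**Figure D5:**
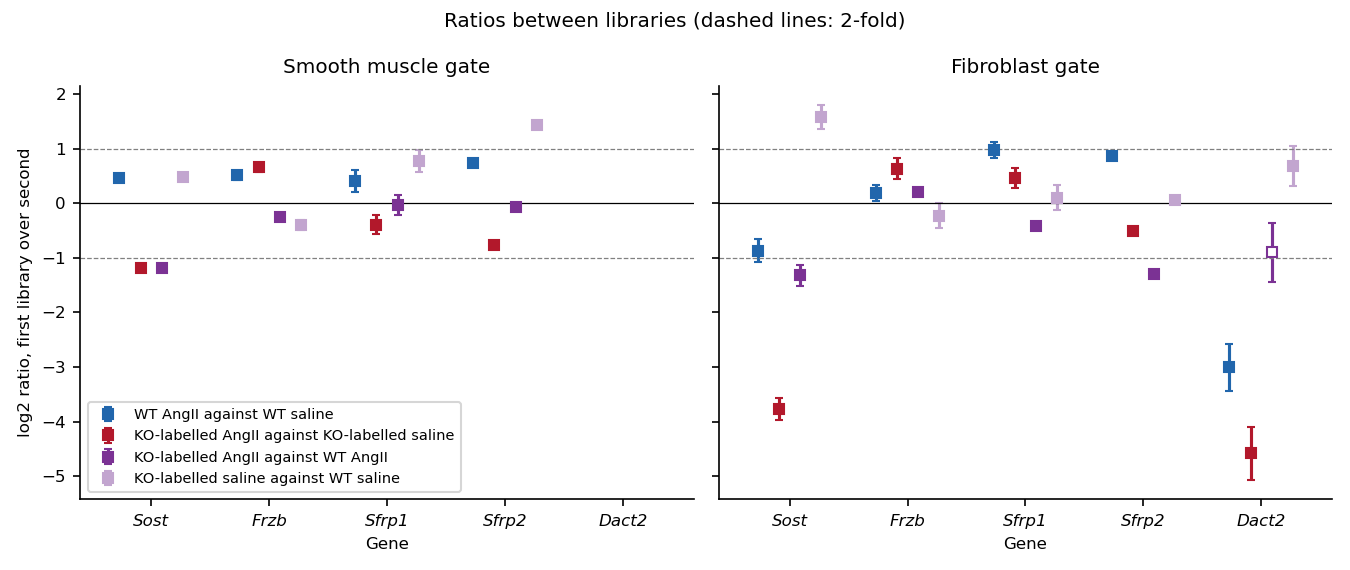
log2 ratio of the first-named over the second-named library for each gene, in the smooth muscle gate (left) and the fibroblast gate (right), with 95% exact conditional intervals; the dashed lines mark 2-fold, the open symbol a ratio with under 100 UMIs, and Dact2 is not drawn in smooth muscle. AngII against saline for Dact2 lies at -4.58 in KO-labelled and -3.00 in WT fibroblasts, while Frzb lies above 0 in both labels and both gates.

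In smooth muscle none was called higher or lower in WT AngII against WT saline, where 5.61% and 4.53% of eligible genes were. None was called higher in KO-labelled AngII against KO-labelled saline (5.2% of eligible genes) or against WT AngII (1.7%), and none lower in KO-labelled saline against WT saline (1.57%). In fibroblasts Sost was the 1 member called higher in KO-labelled saline against WT saline (2.39% of eligible genes), and none was called lower (2.92%). Comparisons that share a library share its error.

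Some members were seen together in the same cells more or less often than others. Within fibroblasts, cells positive for Dact2 were nearly without Frzb: in thinned WT saline cells 1.67% of Dact2-positive cells held a Frzb UMI against 21.9% of the others, and in KO-labelled saline 0 of 37 against 17.9%, where 0 of 37 allows a share of up to 9.49%. Sfrp2 was also found less in Dact2-positive fibroblasts, at 35.1% against 46.3% in KO-labelled saline and 41.7% against 58.5% in WT saline, with intervals of 20.2 to 52.5% against 40.5 to 52.1% and 29.1 to 55.1% against 54.4 to 62.4% that overlap in both libraries. In smooth muscle Sfrp2 was found more in Frzb-positive cells in each library, at 34.7% against 16.5% in KO-labelled AngII, 40.7% against 30.1% in KO-labelled saline, 31.1% against 14.9% in WT AngII and 25.4% against 15.7% in WT saline.

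The genes most alike each member across cells were taken as the 3 with the highest minimum, over the 4 libraries, of the log2 ratio of their CPM in member-positive to member-negative cells. For Sost in smooth muscle they were the potassium channel gene Kcnc4 (1.62 to 2.48), Pdzrn4 (1.28 to 3.96) and the calcium channel gene Cacna1d (1.24 to 2.22). For Frzb in fibroblasts they were Tnnt2, Klc3 and Mall, with minima of 1.75, 1.62 and 1.53. For Sfrp1 they were Igfbp3, Epyc and Gfra1, with minima of 1.34, 1.32 and 1.0. For Dact2 they were Sbsn, Pla1a and Ptgs1, with minima of 2.70, 2.66 and 2.35. For Sfrp2 the leading gene was Gm26771 (3.62 to 5.73), which overlaps Sfrp2 on the opposite strand, so that reads of the 2 cannot be told apart unless counting used strand; AI646519 (1.57 to 3.02) was also among the 3. Gm26771 in smooth muscle stood at 2.02 CPM in KO-labelled AngII, 10.1 CPM in KO-labelled saline, 2.18 CPM in WT AngII and 2.68 CPM in WT saline. Across the 8 gate-by-library levels, the genes with the highest Pearson correlation of log2(CPM + 1) were Sorl1, 0610009L18Rik and Casq1 for Sost (r of at least 0.992), Tmem9b, Tslp and Lsm1 for Frzb (0.986), 6030419C18Rik, Slc41a1 and Afap1l2 for Sfrp1 (0.994), Cpxm2 and Cebpzos among those for Sfrp2 (0.986) and Flt3l, Tpcn1 and Daglb for Dact2 (0.991). These 8 points share libraries and depth, and the correlations are descriptions.

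Other secreted inhibitors and modulators of the pathway were followed beside the members, 10 of 13 listed genes being in the tables. In fibroblasts 5 were eligible in WT AngII against WT saline, and Sfrp4, Wif1 and Cthrc1 were called higher, with log2 ratios of 1.0, 2.24 and 5.87. Over all eligible genes 9.11% were called higher there. The Sfrp4 ratio sat on the 2-fold line (0.94 to 1.07). Of 4 eligible in KO-labelled AngII against KO-labelled saline, Cthrc1 alone was called higher (6.37), beside 12.1% of all eligible genes. Sfrp4 gave -0.49 there. Wif1, with 88 UMIs in KO-labelled saline and so not eligible, gave -2.57 (-2.96 to -2.17), the direction opposite to WT. Wif1, which encodes a Wnt-binding inhibitor, was called lower in KO-labelled AngII against WT AngII, at 6.01 against 12.6 CPM (-1.07). Wif1 was higher in smooth muscle, at 59.5 and 114 CPM in the same libraries (-0.94), and the part of smooth muscle transcripts in its fibroblast ratios was not tested. In smooth muscle Sfrp4, Wif1 and Cthrc1 were again the 3 of 5 called higher in WT AngII, and Cthrc1 the 1 of 5 in KO-labelled AngII. The shares over all eligible genes were 5.61% and 5.2%. In KO-labelled AngII against KO-labelled saline, smooth muscle Wif1 gave -0.74 and Sfrp4 0.89. Sfrp4 and Igfbp4 were called higher in KO-labelled saline against WT saline, at 22.9 against 8.26 CPM and 150 against 74.4 CPM. So 2 of 4 eligible genes were higher there beside Sfrp2, against 1.79% of all eligible genes. The Igfbp4 log2 ratio of 1.01 (0.95 to 1.06) sat on the 2-fold line. The median ratio of this list in WT AngII against WT saline was 1.0 in fibroblasts and 1.15 in smooth muscle, beside 0.08 and -0.12 over all eligible genes. In KO-labelled AngII against KO-labelled saline it was -0.56 in fibroblasts and 0.39 in smooth muscle, beside 0.15 and -0.17.

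Of the other intracellular or membrane inhibitors, Dact1, a paralogue of Dact2, was also called lower with AngII in fibroblasts. It stood at 18.3 CPM in KO-labelled AngII against 69.1 CPM in KO-labelled saline, and at 29.5 CPM in WT AngII against 85.3 CPM in WT saline. Dact1 was the 1 gene called lower among 3 eligible in the KO-labelled comparison, beside 7.12% of all eligible genes. Dact1 and Tle1 were the 2 called lower among 10 eligible in WT, beside 5.72%. Shisa2 was called higher in WT, beside 9.11%. Axin2, the negative feedback gene of the pathway, stood at 1.55 CPM in KO-labelled AngII, 1.79 CPM in KO-labelled saline, 1.41 CPM in WT AngII and 2.42 CPM in WT saline in smooth muscle and was called in neither treatment comparison. In fibroblasts it was 1.99, 6.87, 3.91 and 7.29 CPM in the same order, from 49, 17, 70 and 30 UMIs, too few to be eligible. Its AngII to saline log2 ratio there was -1.79 (-2.61 to -0.90) in KO-labelled and -0.90 (-1.53 to -0.23) in WT libraries.

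Among ligands, Wnt5a, which signals mainly without beta-catenin, was lower in KO-labelled AngII than in KO-labelled saline, at 22.9 against 74.3 CPM in fibroblasts and 1.95 against 6.99 CPM in smooth muscle, and it was called in both gates. It was the 1 ligand or secretion gene called lower of 3 eligible in fibroblasts and of 7 in smooth muscle. Over all eligible genes 7.12% and 5.44% were called lower. Wnt2 was called higher in WT AngII against WT saline in fibroblasts, at 69.6 against 23.3 CPM, and in KO-labelled saline against WT saline, at 74.7 against 23.3 CPM. Of this list 4 and 3 genes were eligible there, beside 9.11% and 2.39% of all eligible genes called higher. KO-labelled AngII had 64.0 CPM of Wnt2, so that WT saline alone stood apart. No Frizzled or LRP receptor was called in WT AngII against WT saline in either gate, with 10 receptor and agonist genes eligible in fibroblasts and 15 in smooth muscle. Over all eligible genes 9.11% were called higher and 5.72% lower in fibroblasts, and 5.61% and 4.53% in smooth muscle. In KO-labelled AngII against KO-labelled saline the fibroblast calls were Fzd6, Rspo2 and Lgr5 higher and Fzd4 lower, of 12 eligible. Over all eligible genes 12.1% were called higher there and 7.12% lower. Among transducers, the transcription factor gene Tcf7l2 was called lower with AngII in WT smooth muscle, with Dvl3, and in KO-labelled fibroblasts. The eligible transducers numbered 10 and 2, beside 4.53% and 7.12% of all eligible genes called lower.

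Of genes commonly listed as transcriptional targets, 2 of 7 eligible were called higher with AngII in WT fibroblasts, Wisp1 and Cd44, and 5 of 7 in KO-labelled fibroblasts, with Lgr5, Myc and Wisp2 besides, beside the shares of 9.11% and 12.1% over all eligible genes. In smooth muscle 4 of 9 were called higher in WT (Ccnd1, Wisp1, Wisp2 and Cd44) and 2 of 9 in KO-labelled libraries (Wisp1 and Cd44), beside 5.61% and 5.2%. None of these targets was called lower in either treatment comparison. Wisp1 was 190 CPM in KO-labelled AngII against 19.4 CPM in KO-labelled saline, and 107 CPM in WT AngII against 19.2 CPM in WT saline, in fibroblasts. BMP genes were included because sclerostin has also been described as a BMP antagonist. Bmp4 was called lower with AngII in fibroblasts of both labels. It stood at 42.3 against 126 CPM in KO-labelled and 58.0 against 187 CPM in WT libraries. Eligible BMP genes numbered 11 and 12, beside 7.12% and 5.72% of all eligible genes called lower. Also called were Id2 lower and Fst higher in KO-labelled fibroblasts (12.1% higher), and Fstl1 higher in WT (9.11%). The BMP and activin antagonist Fst stood in fibroblasts at 507 CPM in KO-labelled AngII against 197 CPM in WT AngII. It was the 1 of 15 called higher there (1.77%), with Id2 lower (4.02%). In smooth muscle Fst was called higher with AngII in both labels, 1 of 15 eligible, beside 5.2% and 5.61%.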

How the data were processed

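For each cell and gene the authors deposited counts of UMIs as whole numbers. Per the submitters' processing notes, Cell Ranger and mm10 were used; the version, annotation and strand setting: not given in the sources used here. Deposited cells held at most 4998 genes, so cells had been filtered earlier. Here, cells needed 500 genes or more and no more than 20% of UMIs from mitochondrial genes. UMIs were summed per gate and library and divided by the gate total (CPM). Ratios carry 95% exact conditional binomial intervals and shares exact binomial ones. The ratio intervals alone were tried on simulated counts, which held counting error only, so variation between cells or libraries was not covered. Phagocytes had at least 10 UMIs of C1qa, C1qb, C1qc and Lyz2, endothelial cells at least 3 of Pecam1 and Cdh5, both with at most 1 of Myh11 and of Dcn plus Lum. No doublet caller was run. Thinning drew 3000 UMIs per cell. Python 3.11.15, scipy 1.17.1, edgeR 4.0.16 (TMM) and DESeq2 1.42.0 (size factors) were used, the last 2 only for scaling. The members, lists and tests were chosen with earlier results of these data known. Named genes were the members, the 3 most alike by each of 2 rules, and listed Wnt genes at least 2-fold apart with at least 100 UMIs. For Sfrp2, 1 gene of each rule is not reported here. Promoters are from RefSeq (GRCm38.p6), where 4 of 5 members matched, and gene positions from GENCODE M21 (GRCm38), where 16889 of 17524 symbols matched.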

Additional observations from a re-analysis of the deposited data

Results flagged for a closer look

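For 4 results the AngII to saline ratio pointed in opposite directions in the KO-labelled and WT libraries. With 1 library per group the difference was not tested. The log2 ratio in KO-labelled libraries minus that in WT libraries was -1.66 for Sost, -1.50 for Sfrp2 and -0.80 for Sfrp1 in the smooth muscle gate. It was -1.36 for Sfrp2 in the fibroblast gate. For Sfrp1 in smooth muscle both ratios were below 0 with stricter gates, and for Sfrp2 in fibroblasts both were above 0 among cells with at least 4000 UMIs.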

How the results depend on the processing

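No paired analysis was possible because each group had 1 library. Of 35 member ratios with at least 100 UMIs, 28 kept their sign under all 8 alternatives that change a value and 7 did not, and 131 of 280 alternative values lay outside the counting interval. Counts of called members changed as follows. Smooth muscle, KO-labelled AngII against KO-labelled saline, lower: 2 with stricter gates (Sost, Sfrp1), and 0 without the deepest 8% of cells, with thinned cells and with the mean of each cell's own CPM. KO-labelled AngII against WT AngII, lower: 0 with thinned cells and with the mean of cells' CPM. Fibroblasts, WT AngII against WT saline, higher: 2 among cells with at least 4000 UMIs and with either scaling (Sfrp1, Sfrp2), and 1 (Sfrp2) without the deepest 8% and with thinned cells; lower: 0 with stricter gates and among cells with at least 4000 UMIs, where Dact2 had under 100 UMIs at ratios of -3.52 and -3.29. KO-labelled AngII against KO-labelled saline, higher: 1 (Frzb) with stricter gates, without the deepest 8% and with the mean of cells' CPM; lower: 1 (Sost) with stricter gates. KO-labelled saline against WT saline, higher: 0 with stricter gates and among cells with at least 4000 UMIs. TMM and median-of-ratios scaling moved the AngII to saline ratios up by 0.11 to 0.17 in smooth muscle and 0.15 to 0.31 in fibroblasts. The causes were not tested. Depth limits Dact2 in smooth muscle, where no library held over 23 UMIs.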
